A study of Caenorhabditis elegans with 2 samples.

Results

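TBP-1, the TATA-binding protein of the nematode Caenorhabditis elegans, was found at 408 sites of the X chromosome that have no tRNA gene nearby. These sites were chosen from the 3862 peaks that the authors list as reproducible. They are the X peaks whose summit, the point of highest signal, lies more than 500 bp from the 5′ end of every annotated tRNA gene. X held 639 reproducible peaks, so 231 had a tRNA gene and 408 did not, and the autosomes held 2932 peaks without one. The study profiled binding by chromatin immunoprecipitation and sequencing (ChIP-seq) in whole young adults aged 65 hours, with 2 biological replicates of a single condition. Both replicates are of strain OP746. All its animals carry the allele unc-119(tm4063) and the transgene wgIs746, which holds tbp-1 tagged at the C terminus with TY1, EGFP and 3xFLAG, and a rescuing unc-119(+) copy. They were hatched from bleached embryos, starved at the first larval stage to synchronise them, and pooled without regard to sex. Sonicated chromatin was precipitated with an antibody against GFP, so the data report on the tagged protein in all tissues together. At any site, fewer cells with TBP-1 bound and less TBP-1 per cell cannot be told apart.

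TBP is a general transcription factor that takes part in initiation by RNA polymerases I, II and III. At mRNA genes it sits in TFIID upstream of the start site, and at tRNA genes it sits in TFIIIB, which TFIIIC places through the A box and the B box, a pair of promoter elements inside the gene. The C. elegans X chromosome is known for few germline genes and for the dosage compensation complex, which lowers X expression in hermaphrodites and enters X at recruitment elements that carry a sequence motif with the core GCGCAGGG. SDC-2 is the protein that directs this complex to X.

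The sequences at the following summits show the kinds of site that the results turn on. Each is 161 bases of the plus strand of X in ce11 (WBcel235), read from the RefSeq assembly and centred on the summit. Capitals mark matches on either strand to the recruitment element core GCGCAGGG, to the A box core GGCNNAGTG, to the B box core GTTCGANNC or to the 8-mer AGACGCAG. The first 3 sites carry the recruitment element core. They are the strongest of the 408 peaks (chrX:1837816-1837976), a site between genes with 2 matches, 1 on each side of the summit (chrX:11094110-11094270), and a site between genes that also carries AGACGCAG (chrX:806602-806762).
rank 74: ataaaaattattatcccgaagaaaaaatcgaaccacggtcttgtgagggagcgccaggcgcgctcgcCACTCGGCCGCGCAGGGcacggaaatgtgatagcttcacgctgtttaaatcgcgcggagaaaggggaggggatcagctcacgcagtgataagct
rank 661: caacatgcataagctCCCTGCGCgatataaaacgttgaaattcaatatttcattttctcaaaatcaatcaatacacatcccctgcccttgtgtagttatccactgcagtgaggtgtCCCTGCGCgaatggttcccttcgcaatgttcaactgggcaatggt
rank 765: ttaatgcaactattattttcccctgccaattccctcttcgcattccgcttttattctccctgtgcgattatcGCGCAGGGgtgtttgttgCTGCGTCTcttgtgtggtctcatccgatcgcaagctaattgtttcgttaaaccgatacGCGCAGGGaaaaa

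The next sequences carry cores of tRNA promoter elements although no tRNA gene is annotated there. The peaks of the microRNA genes cel-mir-4812 (chrX:15242862-15243022) and cel-mir-1829b (chrX:14976940-14977100) hold the A box and B box cores, in opposite orientations on the plus strand, and were 87.7% identical over 114 bases.
cel-mir-4812, rank 483: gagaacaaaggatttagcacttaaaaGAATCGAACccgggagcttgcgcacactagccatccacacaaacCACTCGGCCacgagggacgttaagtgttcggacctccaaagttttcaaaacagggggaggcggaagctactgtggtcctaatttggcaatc
cel-mir-1829b, rank 584: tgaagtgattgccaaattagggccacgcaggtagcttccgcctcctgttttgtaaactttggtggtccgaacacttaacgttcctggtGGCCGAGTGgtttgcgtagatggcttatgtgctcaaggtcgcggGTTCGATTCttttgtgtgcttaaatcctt
The sites of rank 427 (chrX:16893842-16894002) and rank 543 (chrX:8151600-8151760) lie between genes, hold the B box core and were 84.1% identical over 113 bases.
rank 427: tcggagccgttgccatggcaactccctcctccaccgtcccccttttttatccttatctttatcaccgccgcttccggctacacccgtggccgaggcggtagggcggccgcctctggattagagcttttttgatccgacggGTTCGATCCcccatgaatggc
rank 543: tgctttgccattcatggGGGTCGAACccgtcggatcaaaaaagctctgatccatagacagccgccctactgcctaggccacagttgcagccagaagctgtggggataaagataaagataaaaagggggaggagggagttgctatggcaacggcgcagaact
The sites of rank 548 (chrX:10299037-10299197) and rank 591 (chrX:13973211-13973371) lie between genes, hold the A box core and belong to 1 repeat family, with 86.5% identity over 111 bases.
rank 548: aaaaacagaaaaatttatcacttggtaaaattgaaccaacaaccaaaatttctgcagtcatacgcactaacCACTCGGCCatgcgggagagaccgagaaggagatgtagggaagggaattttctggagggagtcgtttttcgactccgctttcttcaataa
rank 591: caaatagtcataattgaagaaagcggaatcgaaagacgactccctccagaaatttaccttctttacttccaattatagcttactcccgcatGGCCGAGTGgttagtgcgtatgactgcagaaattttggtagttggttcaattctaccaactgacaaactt
A protein-coding promoter is shown for contrast, that of hsp-3 (chrX:6092115-6092275), which encodes an endoplasmic reticulum chaperone of the BiP kind. It holds AGACGCAG and neither tRNA element.
hsp-3, rank 1002: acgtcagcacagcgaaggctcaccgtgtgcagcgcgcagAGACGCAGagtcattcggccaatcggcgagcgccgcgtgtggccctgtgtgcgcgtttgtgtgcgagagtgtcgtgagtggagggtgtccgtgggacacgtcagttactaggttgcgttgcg

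The 408 sites lay on X at 23 per Mb, less densely than peaks without a tRNA gene on the autosomes, where the density was 35.5 per Mb and ranged from 26.9 on chromosome V to 45.5 on chromosome III. The left, middle and right parts of X, of equal length, held 125, 111 and 172 of them. In the whole list, 4 sites were among the 386 strongest peaks. Their median signal percentile, with 100 for the strongest peak, was 42.5 (interquartile range 19.8 to 64). Autosomal peaks without a tRNA gene had a median of 43.7, and the X peaks with a tRNA gene had a median of 90.8. Ranks are used because the scale of the deposited signal is not stated, and every one of the 408 sites had the same q value. Read depth is unknown, so no interval that needs it is given.

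The tRNA limit of 500 bp fell in a gap. The sites nearest to it lay 563 bp (rank 2170, at the snoRNA gene M163.14), 740 bp (rank 2615, at C29F7.2) and 936 bp (rank 3108, at sdc-1) from a tRNA 5′ end. The X peaks left out that lay farthest from a tRNA end were at 98, 93 and 84 bp, with ranks 940, 1155 and 997. The median distance of the 408 sites to a tRNA end was 34.8 kb.

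With a reach of 500 bp, sites away from any annotated 5′ end were the most frequent kind on X. With 1000 bp the order turned, to 48.8% with a protein-coding end and 32.4% with none. Each site was counted in the first class that applied within 500 bp of its summit: snoRNA, snRNA or rRNA; protein-coding; other noncoding or pseudogene; none. There was no 5′ end in reach of 197 sites (48.3%, exact 95% binomial interval 43.3% to 53.3%), a protein-coding end at 143 (35%, 30.4% to 39.9%), another noncoding or pseudogene end at 60 (14.7%, 11.4% to 18.5%) and an snoRNA or snRNA end at 8 (1.96%, 0.85% to 3.83%). On the autosomes the same shares were 35%, 48.3%, 9.24% and 7.47%. Over the 5 autosomes taken singly, the share with no end ranged from 29.3% to 39.6%, the protein-coding share from 45.4% to 54.7%, the other noncoding share from 5.67% to 14.4% and the small RNA share from 5.26% to 9.08%. All 4 X shares lay outside the range of the 5 autosomes. Annotated ncRNA genes number 2520 on the 17.72 Mb of X and 5244 on the 82.55 Mb of the autosomes. The part of this density in the other noncoding shares was not tested. The strongest peaks of replicate 1 alone gave 47.9% of X sites without an end and 35% with a protein-coding end, and those of replicate 2 gave 49.3% and 33.5%. The intervals cover counting of peaks only, and whether the X and autosomal shares differ was not tested, since there is 1 group of animals.

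The difference from the autosomes was largest high in the list. With the list cut into 10 rank bins of equal size, in bin 2 28 of the 35 X sites (80%) had no end, against 68 of 168 autosomal peaks (40.5%). In bin 10, the weakest, the shares were equal to 3 digits, 40.4% of 57 X sites and 40.4% of 329 autosomal peaks. The difference did not fall steadily between these bins. The X share was 34% against 35.2% on the autosomes in bin 4, and 54.8% against 30.6% in bin 5. Protein-coding ends were few high in the list on X and on the autosomes: in bin 1 they were at 1 of 4 X sites and 8 of 76 autosomal peaks, and in bin 2 at 1 of 35 and 34 of 168.

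**Figure D1:**
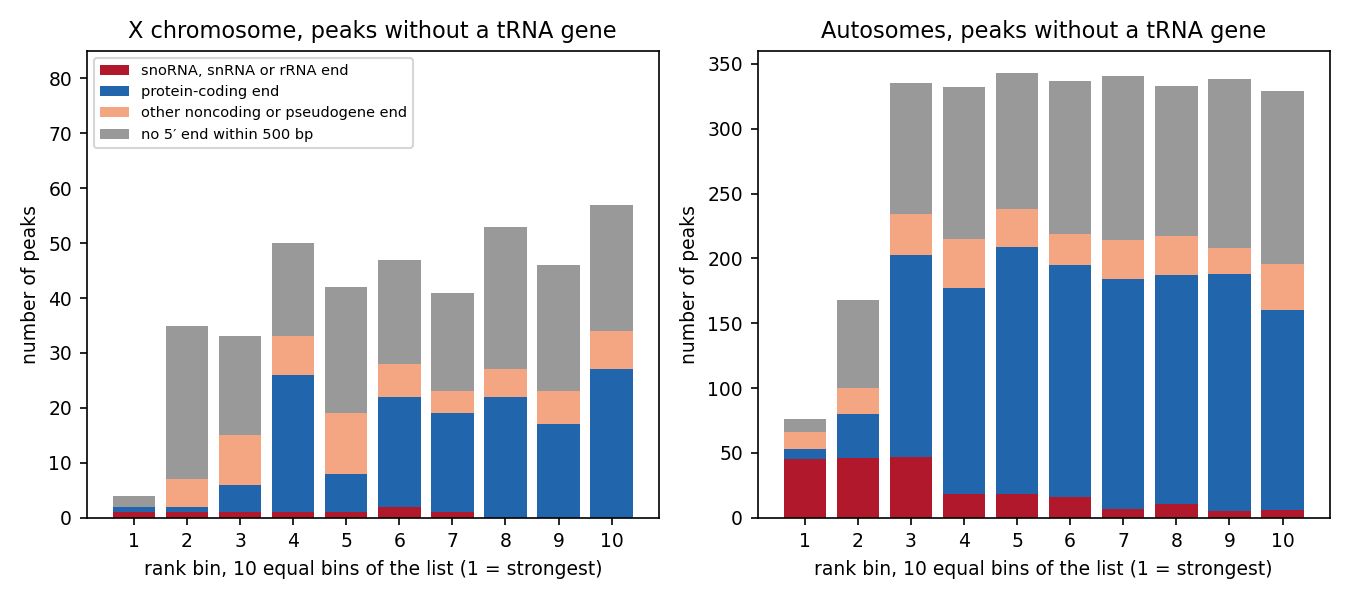
Number of reproducible peaks without a tRNA gene (vertical axis) in each of 10 equal bins of the list ranked by signal (horizontal axis, bin 1 = strongest), for X on the left and the autosomes on the right, coloured by the class of 5′ end within 500 bp. Of the 35 X peaks of bin 2, 28 have no 5′ end in reach, and the vertical scales of the panels differ.

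The replicates were compared by asking whether a site overlapped 1 of the 3862 strongest peaks of each. It did so in both replicates for 278 of the 408 sites (68.1%), against 76.6% of all reproducible peaks, in 1 replicate for 116 and in neither for 14. The share in both was 71.6% for sites with no end, 78.3% for other noncoding or pseudogene ends and 58% for protein-coding ends (83 of 143). On the autosomes 73.9% of peaks without a tRNA gene, and 72.6% of those with protein-coding ends, were in both. These are not independent measures of agreement, because the reproducible list itself was made from both replicates. All 408 sites overlapped a peak of the full replicate 1 list and 404 did in replicate 2.

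**Figure D2:**
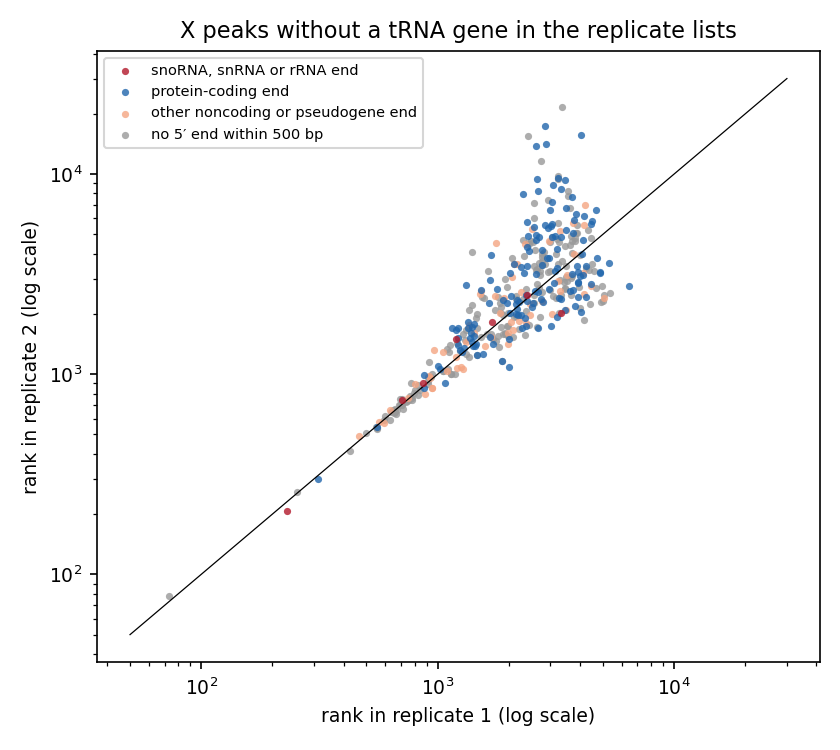
Rank of each X site without a tRNA gene in replicate 1 (horizontal axis) and replicate 2 (vertical axis), both on log scales, coloured by class of 5′ end; the line marks equal ranks. The sites ranked under 1000 lie close to the line, and the spread grows toward weaker sites.

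The strongest site of all lay inside a pseudogene and carried the recruitment element core. It spans chrX:1837663-1838150, within T26C11.3, and ranked 74 in the whole list, 73 in replicate 1 and 78 in replicate 2. No 5′ end lay within 500 bp, the nearest being at 545 bp, and the nearest tRNA end was 20923 bp away. The match to GCGCAGGG contained the summit, and an A box core adjoined it, as the capitals above show. The site had no copy elsewhere in the genome, with a copy defined as at least 80% identity over at least 80 bases of the 121 around the summit.

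The recruitment element core marked a group of strong X sites. It lay within 100 bp of the summit at 15 of the 408 sites (3.68%), at none of 816 windows of the same length 1000 bp to either side, and in 0.0851% of all 201-bp windows of X. On the autosomes 15 of 2932 peaks without a tRNA gene held it (0.512%), 10 of them in the small RNA class, and single autosomes ranged from 0 to 1.12%. Of the 15 X sites, 14 had no 5′ end in reach, 10 lay between genes, and 14 were in both replicates. Their ranks ran from 74 to 1699 with a median of 797, and the match lay at a median of 15 bp from the summit.

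Several of these 15 sites lay more than 1000 bp from any protein-coding 5′ end or inside a gene. Distances given here are to protein-coding 5′ ends. The site of rank 661 (replicates 668 and 634), printed above, was 3996 bp downstream of the start of W02H3.3. The site of rank 701 (replicates 694 and 702) lay in an intron of mom-1, which encodes a protein that Wnt-secreting cells need, and held 2 matches. The site of rank 765 (replicates 761 and 781) was nearest to gtr-1, at 3904 bp, and held 2 matches as well. The site of rank 797 lay in an exon of the polyketide synthase gene pks-1. The sites of rank 756 and 1699 lay 1798 and 1233 bp upstream of F20B6.9; the second ranked 2543 in replicate 1 and overlapped no peak of replicate 2. The exception with a 5′ end in reach was R04E5.9 (rank 1199, replicates 1242 and 1326), where the summit lay 1 bp from the annotated end. X as a whole has 81 occurrences of GCGCAGGG, and 19 of them (23.5%) were within 100 bp of a reproducible summit of any kind. On the autosomes 16 of 233 (6.87%) were. The dosage compensation complex was not profiled here, so whether these sites are recruitment elements was not tested.

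Another group of strong sites carried cores of tRNA promoter elements, mostly an A box or a B box core alone. An A box or B box core lay within 100 bp of 50 of the 408 summits (12.3%), against 2.94% of the flanking windows, 14.9% of the autosomal peaks and 3.99% of their flanks. Both cores lay at 9 of the 408 (2.21%), against 0.123% of the flanking windows and 2.86% of the autosomal peaks. All 201-bp windows of X held the A box core in 0.87% and the B box core in 1.41%. The 197 sites with no 5′ end changed sharply in content with rank. In the strongest rank quartile of the list (ranks 1 to 965), 20 of 42 such sites held an A or B box core and 11 held the recruitment element core, so that 30 (71.4%) held at least 1 of them, while 0 of 84 flanking windows did for either. In the following quartiles the share was 5 of 46 (10.9%), 2 of 49 (4.08%) and 3 of 60 (5%). An A and a B box core lay together at 2 of the 42 sites of the strongest quartile. Of these 42, 21 had a copy elsewhere in the genome. Of the 20 with an A or B box core, 7 belong to 1 repeat family. Others of the 20 fall in smaller families. The sites of rank 427, 543 and 886 belong to a family of 4, those of rank 550 and 647 form a pair, and that of rank 829 has 1 relative among the 408. The sites counted here are therefore not all separate sequences. Among autosomal peaks of the same class in the strongest quartile, 73 of 127 (57.5%) held an A or B box core and 2 held GCGCAGGG. In the next quartile the autosomal share with an A or B box core was 31.8%, against 4.35% of the 46 X sites.

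**Figure D3:**
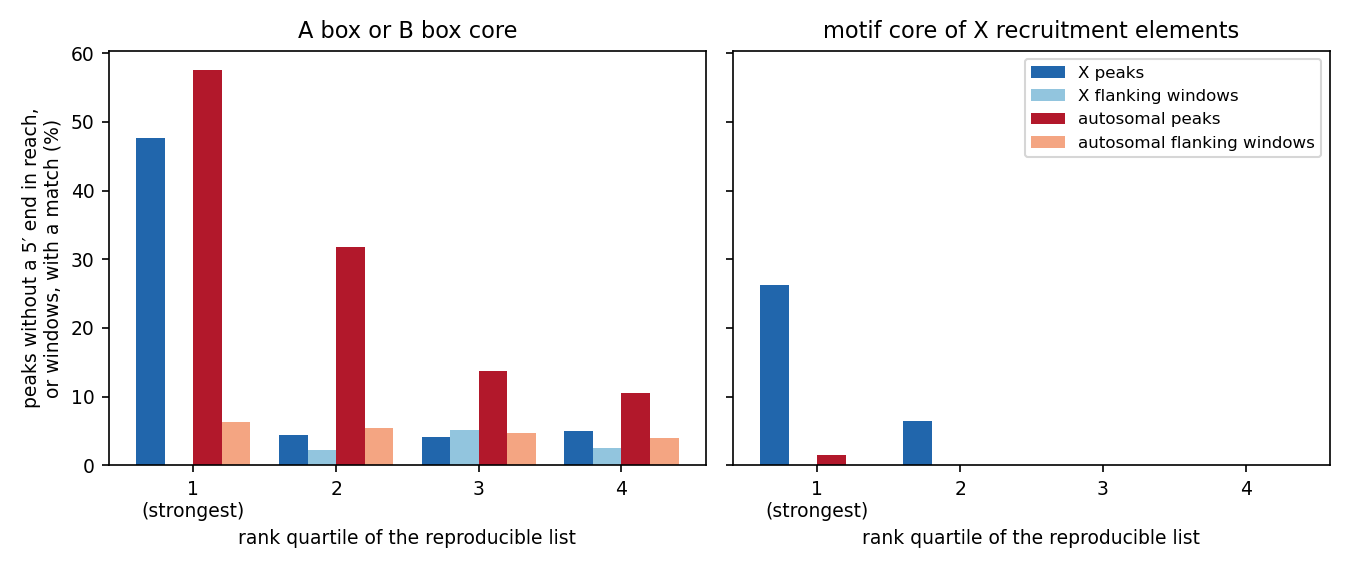
Share of peaks without a 5′ end in reach (vertical axis, percent) that hold an A box or B box core (left) or GCGCAGGG (right) within 100 bp of the summit, by rank quartile of the list (horizontal axis), with flanking windows 1000 bp away. In the strongest quartile 47.6% of the 42 X peaks hold an A or B box core and 26.2% hold GCGCAGGG, against 57.5% and 1.57% of the 127 autosomal peaks.

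The strong sites without a 5′ end were in part copies of one another. A family of 8 sites, ranked 548 to 941, had 26 to 70 copies elsewhere in the genome by the definition above. No 5′ end was in reach of any of the 8, and 7 held the A box core. Its strongest members lay between genes, at 3624 bp upstream of fip-5, a fungus-induced gene (replicates 555 and 540), and at 2362 bp upstream of F48F7.5 (rank 591, replicates 593 and 588). A second family of 6 sites (ranks 635 to 2142, 33 to 40 copies) held neither box. A family of 4 (ranks 427 to 886, 3 copies each) included the sites 955 bp upstream of F39F10.2 (replicates 425 and 415) and 959 bp upstream of F22F1.2 (rank 543, replicates 554 and 531); 3 of the 4 held the B box core. The sites of rank 550, 3364 bp upstream of the homeobox gene ceh-37, and of rank 647 were 90.4% identical over 115 bases. Of all 197 sites without an end, 48 (24.4%) had a copy, and so did 19% of their flanking windows. On the autosomes 266 of 1025 peaks without an end (26%) had a copy, and so did 22.8% of their flanking windows. In the strongest rank quartile 21 of the 42 X sites without an end had one. No flank or autosomal share is given for that quartile. Reads that map to several copies could be placed or discarded by the authors' alignment, which is not described in the sources used here.

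Other strong sites without an end were not of these families. The third strongest site (rank 258, replicates 254 and 257) lay 842 bp upstream of F02E8.4, held the B box core and had no copy. The site of rank 501 (replicates 496 and 506) lay in an intron of Y59E1A.4, 523 bp from its start, and held the B box core. The site of rank 611 (replicates 600 and 619), 1770 bp upstream of the intermediate filament gene ifd-1, held none of the motifs searched and had 5 copies.

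Beyond motif content, the 197 sites without an end lay mostly between genes. There were 134 between genes (68%, exact 95% binomial interval 61% to 74.5%), 49 in introns of protein-coding genes (24.9%), 9 in their exons and 5 inside other genes only. On the autosomes 55.9% were between genes and 11.8% in exons. The median distance to the nearest protein-coding 5′ end was 1883 bp, against 1571 bp on the autosomes, and 100 of the 197 lay within 2000 bp of one. Of the 134 between genes, 94 (70.1%) were upstream of the nearest protein-coding gene, as were 69.8% on the autosomes.

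Pseudogenes of tRNAs account for nearly all pseudogenes with a site. Of 178 X pseudogenes in the Ensembl annotation, 8 had a summit within 500 bp (4.49%, against 4.84% over all chromosomes), and 7 of the 8 are annotated as tRNA pseudogenes. RefSeq lists 29 such tRNA pseudogenes on X, so 24.1% had a site, against 36.1% of 180 on the autosomes. The strongest was C14E2.t1 (rank 813, replicates 800 and 889), with the summit 13 bp inside it and a B box core. It was followed by F16F9.t1 (rank 1032), ZK380.t2 (1705), F19G12.t1 (1932), W03H1.t1 (2161), Y59E1B.t1 (2377) and F23G4.t1 (2698). All 7 summits lay between 29 bp upstream and 56 bp inside the annotated end. The remaining one was F47G3.2 (rank 3769), which was in the top of neither replicate.

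Of the small structural RNA genes of X, few had a site. A summit lay near 7 of 33 snoRNA genes (21.2%, exact 95% binomial interval 8.98% to 38.9%), against 40.8% over all chromosomes and 42.8% on the autosomes. snoRNAs direct enzymes to the bases of other RNAs that they modify. The strongest was C53B7.8 (rank 220, replicates 230 and 208), with its summit 55 bp upstream of the annotated end at chrX:6867654-6868115. K09E9.5 (717), T09B9.10 (1202), D2021.6 (1664), M163.14 (2170), T21F2.3 (2225) and Y59E1B.14 (2377) followed. All 7 summits lay upstream, at a median of -53 bp, which was -57 bp at the 134 autosomal snoRNA genes. The M163.14 site overlapped no peak of the replicate 2 list. The D2021.6 peak also lay 195 bp upstream of sdha-1. The Y59E1B.14 peak was that of the tRNA pseudogene Y59E1B.t1, with the summit 53 bp upstream of the snoRNA gene and 10 bp inside the pseudogene. Of 3 snRNA genes, M163.13 had a site (rank 876, replicates 870 and 905), 9 bp upstream of it, against 58.1% of snRNA genes over all chromosomes; snRNAs serve splicing.

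Of 74 microRNA genes on X, 8 had a site (10.8%, exact 95% binomial interval 4.78% to 20.2%), against 15.3% over all chromosomes and 17.1% on the autosomes. The strongest, cel-mir-4812 (rank 483, replicates 464 and 492), lies in an intron of piki-1, which encodes a phosphoinositide 3-kinase, and the summit was 93 bp upstream of the microRNA and 3457 bp from the piki-1 start. cel-mir-1829b (rank 584, replicates 594 and 571) lies in an intron of F20D1.3 with the summit 99 bp upstream. These are the related sequences with A and B box cores printed above. At the microRNA cluster that holds cel-mir-54, cel-mir-55 and cel-mir-56, 1 peak (rank 1131, replicates 1252 and 1086) lay 233 bp upstream of cel-mir-54 and 403 bp upstream of cel-mir-55. It was also in reach of cel-mir-55b, annotated on the opposite strand. A weaker peak (rank 3361, replicates 2109 and 3534) lay 333 bp past the start of cel-mir-56. The others were cel-mir-8196a (rank 1345, summit 11 bp upstream) and cel-mir-75 (rank 2996, replicates 3511 and 3147, 121 bp upstream).

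Among longer noncoding RNAs, 5 of 38 lincRNA genes had a site (13.2%, against 9.28% over all chromosomes). linc-75 led (rank 1167, replicates 1190 and 1214), and linc-7, linc-54, linc-100 and linc-142 ranked 2086, 3246, 3553 and 3857. Of these 5, linc-75 alone was in both replicates. Of 2520 genes of the ncRNA class 98 did (3.89%, against 6.89% over all chromosomes), and 0 of 7 antisense RNA genes did, which allows a share of up to 42.9% (against 4% over all chromosomes). Of 162 piRNA genes 4 had one (2.47%, against 1.47% over all chromosomes), led by 21ur-15084, whose peak was that of the snoRNA gene T09B9.10. The strongest site with ncRNA ends and no protein-coding end was at F02D10.13 and F02D10.15 (rank 567, replicates 563 and 574), and it held the A and B box cores.

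**Figure D4:**
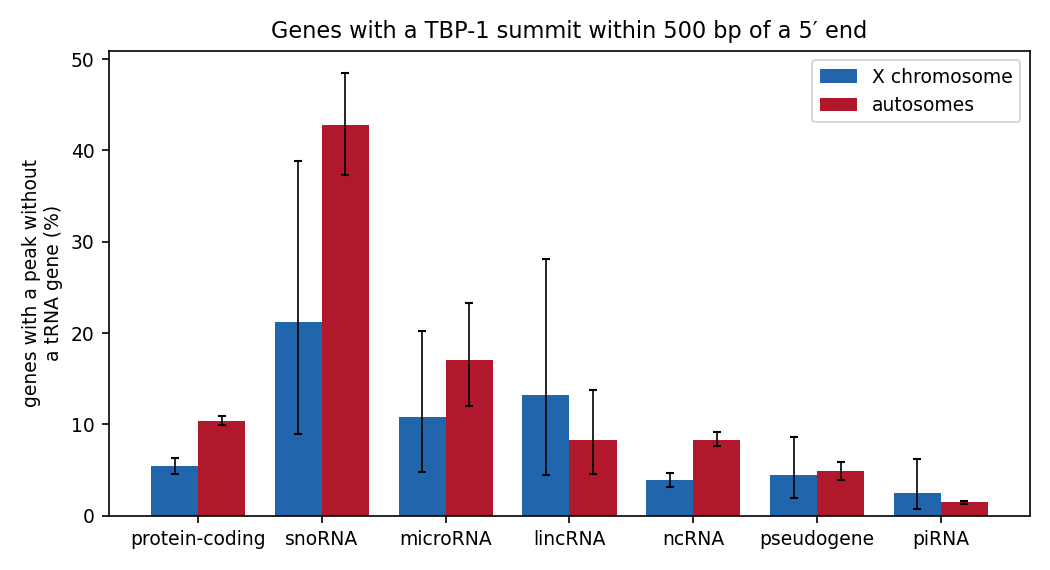
Share of annotated genes (vertical axis, percent) with the summit of a peak without a tRNA gene within 500 bp of a 5′ end, by gene class, on X and on the autosomes; bars are shares and error bars exact 95% binomial intervals for counting of genes. The X share is 5.42% against 10.4% for protein-coding genes and 21.2% against 42.8% for snoRNA genes.

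Protein-coding genes of X had a site less often than those of each autosome. Of 2731 genes, 148 had a summit within 500 bp of a 5′ end (5.42%, exact 95% binomial interval 4.6% to 6.34%), against 9.71% over all chromosomes. The autosomes together gave 1792 of 17242 (10.4%), and singly from 6.51% on chromosome V to 14.2% on chromosome III. X has 154 protein-coding genes per Mb, against 188 to 239 on the autosomes, and the part of gene density in these shares was not tested. Sites at protein-coding genes were weaker than the autosomal ones, with a median percentile of 32.3 (interquartile range 15.5 to 52.5) against 41.4.

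Shared promoters were uncommon among them. Of the 143 sites with a protein-coding end, 7 (4.9%) had ends of 2 or more protein-coding genes in reach, and 6 lay between a divergent pair. On the autosomes 370 of 1417 peaks (26.1%) had several, with single chromosomes from 21.7% to 29.1%. An ncRNA end was also in reach at 28 of the 143 (19.6%), against 9.03% on the autosomes. X has 2520 annotated ncRNA genes on 17.72 Mb, against 5244 on the 82.55 Mb of the autosomes. The part of ncRNA gene density in these shares was not tested.

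The summit lay upstream of the annotated end at 132 of the 148 genes (89.2%). The median position was -177 bp (interquartile range -306 to -73.5 bp), negative values being upstream, and -176 bp at the autosomal genes. Replicate 1 alone gave -185 bp over 158 genes and replicate 2 gave -174 bp over 141. Many worm mRNAs are trans-spliced, so that the annotated end can lie downstream of the point where transcription starts. At the 98 ncRNA genes the median was 59 bp inside the gene.

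**Figure D5:**
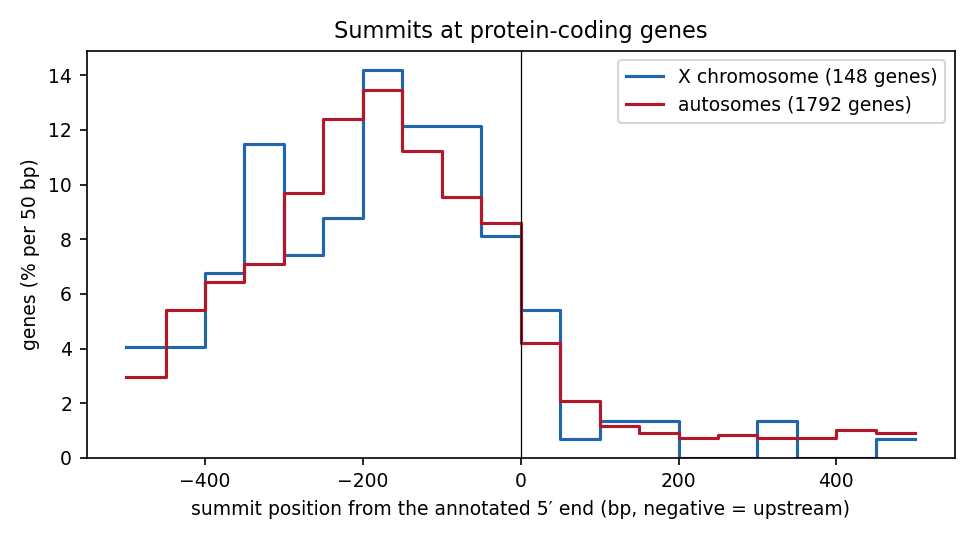
Distance from the annotated 5′ end to the summit (horizontal axis, bp, negative is upstream) at protein-coding genes with a peak without a tRNA gene, as the percentage of genes in each 50 bp bin (vertical axis), for 148 genes of X and 1792 autosomal genes. The medians are -177 bp and -176 bp.

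Both sites with a protein-coding end that ranked highest were shared with ncRNA genes. T13C5.6 (rank 310, replicates 311 and 301) had its summit 144 bp upstream, and 4 bp upstream of the ncRNA gene C14F11.14. ZK816.3 (rank 554, replicates 553 and 548) shared its peak with ZK816.8 and ZK816.9, whose ends were 91 and 10 bp from the summit. puf-9, which encodes an RNA-binding protein of the Pumilio family (rank 883, replicates 873 and 993), and epn-1, which encodes the endocytic adaptor epsin (rank 988, replicates 1076 and 904), also shared theirs with ncRNA genes.

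The strongest sites with protein-coding ends alone led with serp-1.1 (rank 856, replicates 875 and 852; summit 297 bp upstream). hsp-3 followed (rank 1002, replicates 1023 and 1056; 71 bp upstream), then F20B6.9 (rank 1028, replicates 1003 and 1094), whose summit lay 316 bp past its start. The next were sym-4 (1189), R04E5.9 (1199), zfp-3 (1232) and F17H10.1 (1245). The peak between trap-2 and ile-2 (rank 1258, replicates 1154 and 1705) lay 184 and 343 bp upstream of a divergent pair. trap-2 encodes a subunit of the complex beside the protein translocation channel of the endoplasmic reticulum, and ile-2 a lectin of the early secretory pathway. epg-7, an autophagy gene (rank 1273, replicates 1196 and 1672), and pab-2, which encodes a poly(A)-binding protein (rank 1304, replicates 1293 and 1356), closed the first 10. No gene had 3 such peaks. act-4, the sirtuin gene sir-2.2 and the haem transporter gene hrg-1 had 2 each.

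At the protein-coding sites AGACGCAG was the motif with the largest ratio to the flanks among those counted, apart from GCGCAGGG, which 1 of these sites held. It lay within 100 bp of 18 of 143 summits (12.6%), against 0.35% of the flanking windows, 11.2% of the autosomal peaks of the class and 0.563% of all 201-bp windows of X. hsp-3, epn-1, hst-2, unc-115 and asb-2 were among the genes with it; this motif was searched after the data were seen. GAGAGAGA was found at 7.6% of all 408 sites, 1.35% of the flanks and 7.23% of autosomal peaks. TATAAA, the element that TBP is named after, was found at 66 of the 408 sites (16.2%), 23.2% of the flanks and 22.8% of all X windows. On the autosomes TATAAA was found at 16.5% of peaks and 18% of their flanks. TGATAA, a motif bound by intestinal ELT factors, was found at 22.1% of the sites and 21.7% of the flanks, against 18.3% of autosomal peaks and 17.6% of their flanks.

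Gene groups were counted by lists that select protein-coding genes by symbol. On X 22 of the 23 lists have members, 293 genes in all, and 21 of these genes had a site. They fell in 11 lists, and each count is to be read beside the 5.42% of all X protein-coding genes.

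Respiratory chain genes and chaperones held several. Over the whole genome 48.8% of the respiratory chain list, 37.3% of the chaperones and 42.5% of the translation factors had a site. Of the 5 respiratory chain genes on X, 4 had a site: ucr-2.2 (rank 1451) and ucr-2.1 (2088) of complex III, sdha-1 (1664) of complex II and asb-2 (2024) of the ATP synthase, while asg-2 had none. The ranks were 1710 and 1413 in the replicates for ucr-2.2, and 1681 and 3947 for ucr-2.1. The sdha-1 peak was that of the snoRNA gene D2021.6. The ucr-2.1 peak lay 301 bp upstream of ucr-2.1 and 85 bp upstream of nmat-1. The share of this list was 80%, and 40% with a reach of 250 bp or with nearest ends alone. Chaperones had 2 of 5, hsp-3 and the DnaJ gene dnj-14 (rank 1380, replicates 1389 and 1602), whose peak was divergent with glit-1. The elongation factor gene eef-1A.2 (rank 1261, replicates 1462 and 1247) was 1 of 3 translation factor genes, the 2 cytosolic ribosomal protein genes had none (83.3% over the whole genome), and the linker histone gene his-24 (rank 1231, replicates 1271 and 1294) 1 of 4 histone genes. Of the list of germline and embryo genes, X holds puf-9, which had a site, and rme-4 and rme-6, which had none. rab-14 (2608) was 1 of 4 small GTPase genes, and act-4 (1871), which encodes an actin, 1 of 13 muscle structure genes.

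Genes of X dosage compensation, developmental timing and yolk also had sites. sdc-2 (rank 1357, replicates 1447 and 1412) had its summit 417 bp upstream, and sdc-1 (rank 3108, replicates 2960 and 3829) 329 bp upstream. The other 5 genes of this list on X had none, among them sex-1, fox-1 and xol-1, the switch gene that represses sdc-2. Of 5 heterochronic genes, lin-14, a timing regulator (rank 3260, replicates 2834 and 5582), and alg-1, a microRNA Argonaute (rank 3786, replicates 4018 and 3087), had a site, each in the top of 1 replicate, so that 20% of this list had one with either replicate alone. Of 5 vitellogenin (yolk protein) genes, which the adult intestine transcribes, vit-1 (rank 3285, replicates 4249 and 3481; summit 80 bp upstream) and vit-2 (rank 3415, replicates 2961 and 2672; 100 bp upstream) had one, and vit-3, vit-4 and vit-5 had none. The share of this list was 40%, and 20% without replicate 2. The near-identical copies within this family make the placement of reads uncertain. Of 23 nuclear hormone receptor genes, nhr-35 (1483), nhr-1 (2115), nhr-32 (2870) and nhr-17 (2976) had a site, with summits 330 to 442 bp upstream.

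With a reach of 500 bp in the reproducible list, large groups of tissue-specific genes on X had no site. These were the neuropeptide genes (0 of 35), the neuropeptide and amine receptor genes (0 of 34), the ligand-gated ion channel genes (0 of 28), the chemoreceptor genes (0 of 28), the col collagen genes (0 of 27), the potassium channel genes (0 of 20) and the ceh homeobox genes (0 of 18). A count of 0 allows shares of up to 8.57%, 8.82%, 10.7%, 10.7%, 11.1%, 15% and 16.7% in that order. These limits cover counting of genes only, and all 7 lie above the 5.42% of all X protein-coding genes. Over the whole genome the same lists had a site at 1.41%, 1%, 0, 1.11%, 3.85%, 2.78% and 1.59% of their genes. Without replicate 1, 3.7% of the X col collagen genes had a site, and with a reach of 1000 bp 2.86% of the X neuropeptide genes did. Outside these groups, detoxification enzymes (14 genes), the ubiquitin system (8) and C-type lectins (3) also had 0 on X. Such counts allow up to 23.2%, 36.9% and 70.8% in that order by the same interval, so they say little. Over the whole genome 5.95%, 27.3% and 2.5% of these lists had a site. With 1000 bp, 7.14% of the X detoxification enzymes had one.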

How the data were processed

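The deposited files are peak lists on ce11, 1 per replicate, 1 called on both replicates pooled, and the reproducible list thresholded by IDR, the irreproducible discovery rate. All were called against a control alignment, per the deposited descriptions. Each replicate list and the pooled list has 30000 entries, background included. Which aligner and peak caller made them is not given in the sources used here. As to the values, the deposited signal, of unstated scale, was used for ranks within a list alone. The deposited −log10 q value was not used to rank. Summit offsets were used as deposited. There is 1 group, so no test was run, and shares carry exact binomial (Clopper-Pearson) 95% intervals for counting error only.

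Members and gene lists were chosen with earlier results of these data known. Gene ends came from Ensembl release 115 (any transcript), and sequence and tRNA pseudogenes from RefSeq, both WBcel235, the same assembly as ce11. A gene counted as having a site when a summit lay within 500 bp of a 5′ end. Motif matches were taken from both strands in the 201 bp centred on each summit. GGCNNAGTG, AGACGCAG, the counts of either box and of both boxes, the copy search, and tRNA pseudogenes were added after seeing the data. An A box core and a B box core can lie at 1 site, and GCGCAGGG and AGACGCAG share the letters CGCAG. Copies were found with blastn 2.17.0. Named genes are those of the 15 strongest sites, the 10 strongest with protein-coding ends alone, the 8 strongest without an end, the noncoding classes, the limit, and the lists (up to 5 with a site and 3 without). Genes beside motif matches were named after their values were seen. Assignment to 5′ ends was tested on simulated peaks. Alternatives are listed with their effects in the closing section. Python 3.11.15, numpy 2.4.6, scipy 1.17.1 and matplotlib 3.10.9 were used.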

Additional observations from a re-analysis of the deposited data

How the results depend on the processing

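The alternatives were windows of 250 and 1000 bp, the stronger part of the list cut in the middle (1931 peaks), each replicate alone, gene-model ends, nearest ends alone, the whole peak instead of its summit, a tRNA limit of 1000 bp, repeated intervals counted once, 50 bp around summits for motifs, flanks at 500 bp, and other overlap rules. Values for the autosomes were not recomputed under each of these, so X is not compared with them here. The most frequent class turned from none to protein-coding with the 1000 bp window. The stronger peaks alone held 164 sites. The protein-coding share of sites was 23% with 250 bp, 48.8% with 1000 bp, 23.8% with the stronger peaks, 29.7% with nearest ends and 14.7% with peak intervals. The share without an end was 61.5%, 32.4%, 53.7% and 69.6% (250 bp, 1000 bp, stronger peaks, intervals), and other noncoding ends 19.5% (stronger peaks) and 20.6% (nearest ends). In the same order as the first, X protein-coding genes with a site were 3.48%, 7.58%, 1.54%, 4.36% and 2.2%, ncRNA genes 3.06%, 5.04%, 2.02%, 2.5% and 2.38%, and pseudogenes 1.69% with the stronger peaks. List genes with a site numbered 8 (250 bp), 10 (stronger peaks), 13 (nearest ends) and 5 (intervals). Nuclear hormone receptors fell to 0% with 250 bp and intervals and 4.35% with the stronger peaks, sex determination genes to 0% with 250 bp and intervals, heterochronic genes to 0% with the stronger peaks and intervals, vitellogenins to 0% with the stronger peaks (20% to 40% with either replicate alone; 20% for heterochronic genes) and respiratory chain genes to 0% with intervals. The median position was -113, -197, -215, -156 and -69 bp (250 bp, 1000 bp, stronger peaks, nearest ends, intervals), and -185 to -174 bp with either replicate alone. Sites between genes were 77.3% with the stronger peaks. The median percentile was 36 with the stronger peaks and 39.8 to 40.3 with either replicate alone. Presence in both replicates was 57.6% when 50% of both peaks had to overlap and 94.6% with 7724 replicate peaks. Within 50 bp, TATAAA was at 8.58%, GTTCGANNC at 2.45%, GAGAGAGA at 4.9% and TGATAA at 11.5%. With the stronger peaks GTTCGANNC was at 11%, GCGCAGGG at 9.15%, GAGAGAGA at 4.88% and TGATAA at 12.8%. The cause of these moves was not tested, beyond the fewer or more genes in reach that a window gives. No paired analysis was possible because there is 1 group. Depth is unknown, so a missing peak does not show that TBP-1 was absent.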
